A study of Rattus norvegicus with 15 samples.

Results

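The gelatinases Mmp2 and Mmp9 and their inhibitor Timp1 were followed through 5 stable lines of Rat1a, an established rat fibroblast cell line. The 3 genes were taken by Ensembl identifier, ENSRNOG00000016695 for Mmp2, ENSRNOG00000017539 for Mmp9 and ENSRNOG00000010208 for Timp1, out of 32545 identifiers in each count table. All 3 identifiers were present in every table. The tables give identifiers without names, and the names of these 3 genes came with the list of identifiers.

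The lines carried mouse MYC with 1 lysine replaced by arginine (K149R in line R149, K158R in line R158 and K323R in line R323, each named for the residue), unaltered mouse MYC (wild type, WT), or only the empty vector (EV). Lysine can be acetylated and arginine cannot, and the study asked about acetylated lysines of MYC in transformation and in gene-selective regulation. Each line had 3 biological replicates, grown attached to the dish in high-glucose medium with serum, and stranded libraries of polyadenylated RNA were sequenced. The labels name no change to the cells' own Myc gene in any line, do not say whether a line was 1 clone or a pool, and call the cells primary, although Rat1a is an established line. With 1 stable line per construct, the line and its construct cannot be told apart, and p-values measure the spread between cultures of a line.

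Libraries held between 13303631 and 108933235 counts in genes, and 13676 genes passed the filter on low counts and were tested. Levels are CPM, counts per 1000000 counts of the library, on totals scaled by trimmed mean of M values (TMM), and intervals on single counts are exact Poisson intervals that cover counting error only. Calls were made by edgeR's quasi-likelihood test at an adjusted p below 0.05, with Benjamini-Hochberg adjustment over all tested genes. No added RNA standard is stated, so changes are measured against the rest of each library's RNA. The comparisons with EV share the 3 EV libraries, and those with WT share the 3 WT libraries. Fibroblast markers could not be read, because no reference table used here paired Ensembl identifiers with symbols, and the other proteases and inhibitors of the pathway could not be counted for the same reason. Replicate 1 of several lines stood apart from replicates 2 and 3, and R149 replicate 1 had the fewest genes detected, 13955, against up to 17848 in R149 replicate 3. Each result that changes without the replicate 1 libraries is therefore given both ways.

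Gelatinases are zinc-dependent matrix metalloproteinases that fibroblasts and other cells secrete as inactive precursors. They cut denatured collagen (gelatin) and type IV collagen of basement membranes once their propeptide is removed. Mmp2, gelatinase A, is typically made constitutively by fibroblasts, and Mmp9, gelatinase B, is typically induced by cytokines and growth factors. Timp1, a tissue inhibitor of metalloproteinases, is a secreted protein that blocks the active site of most matrix metalloproteinases and also binds the precursor of Mmp9. Only RNA was measured, so secretion, activation and enzyme activity were not read.

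Of the 3 genes, 1 was matched in the RefSeq promoter table of build GRCr8, Timp1, and Mmp2 and Mmp9 are named only. The Timp1 promoter is shown because MYC and its partner MAX bind the E-box CACGTG, which can be searched for in it. The window, chrX:3771073-3771372 on the minus strand, runs from 250 bases before to 50 bases after the RefSeq start and is 61.3% G and C. Capitals mark a GC box (GGGCGG, here on the opposite strand as CCGCCC) and a TGAGTAA, a variant of the AP-1 site TGANTCA that is known from the mouse Timp1 promoter.
Timp1 promoter: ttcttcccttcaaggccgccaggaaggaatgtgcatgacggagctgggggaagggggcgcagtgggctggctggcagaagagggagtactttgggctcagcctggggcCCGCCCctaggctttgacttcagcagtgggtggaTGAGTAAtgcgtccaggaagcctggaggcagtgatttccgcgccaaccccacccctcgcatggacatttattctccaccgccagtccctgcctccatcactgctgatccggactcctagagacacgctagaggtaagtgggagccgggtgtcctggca

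On both strands, the window held 0 matches to CACGTG, which occurs in 6.42% of 33469 rat promoters of the same length, and 0 matches to the looser CANNTG, of which CACGTG is a special case and which occurs in 72.1%. It held 0 matches to TGANTCA (7.33% of promoters). The 1 match to TGAGTAA began at base -108 from the start (2.9% of promoters, a motif chosen after the sequence was seen), and the 1 match to GGGCGG began at base -142 (33.1%). A match describes letters only, and its absence says only that these letters are not in this window. In the RefSeq annotation Timp1 lies inside Syn1, a neuronal gene on the opposite strand. The libraries kept strand, but the strand setting of the counting is not given in the sources used here, so reads of the 2 genes could not be told apart with certainty. In the RefSeq gene table, which holds all 3 genes by symbol, 0 genes overlapped Mmp2 or Mmp9.

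Mmp2 was highest in the WT line, intermediate in R149, and low in R158, R323 and EV. Mmp2 averaged 9.93 ± 3.21 CPM in R149, 2.80 ± 0.502 CPM in R158, 3.18 ± 1.78 CPM in R323, 41.5 ± 20.7 CPM in WT and 3.43 ± 3.03 CPM in EV (SD, n = 3 each). Its counts ranged from 20 in R323 replicate 1 to 1619 in WT replicate 2, so all 15 libraries were readable. In such bulk libraries, fewer cells that make an RNA and less RNA per cell cannot be told apart.

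In the R149 line, replicates 1 to 3 had 13.6, 8.48 and 7.69 CPM of Mmp2. In R158 they had 3.38, 2.47 and 2.56 CPM, and in R323 they had 1.13, 4.14 and 4.27 CPM. All 3 R149 libraries stood above all 9 libraries of R158, R323 and EV, an arrangement found in 1.15% of tested genes. In the WT line the values were 18.4, 47.7 and 58.3 CPM. In the EV line they were 6.91, 1.48 and 1.88 CPM. Every WT library stood above the other 12, an arrangement found in 76 of 13676 genes (0.556%). R158, R323 and EV overlapped.

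**Figure D1:**
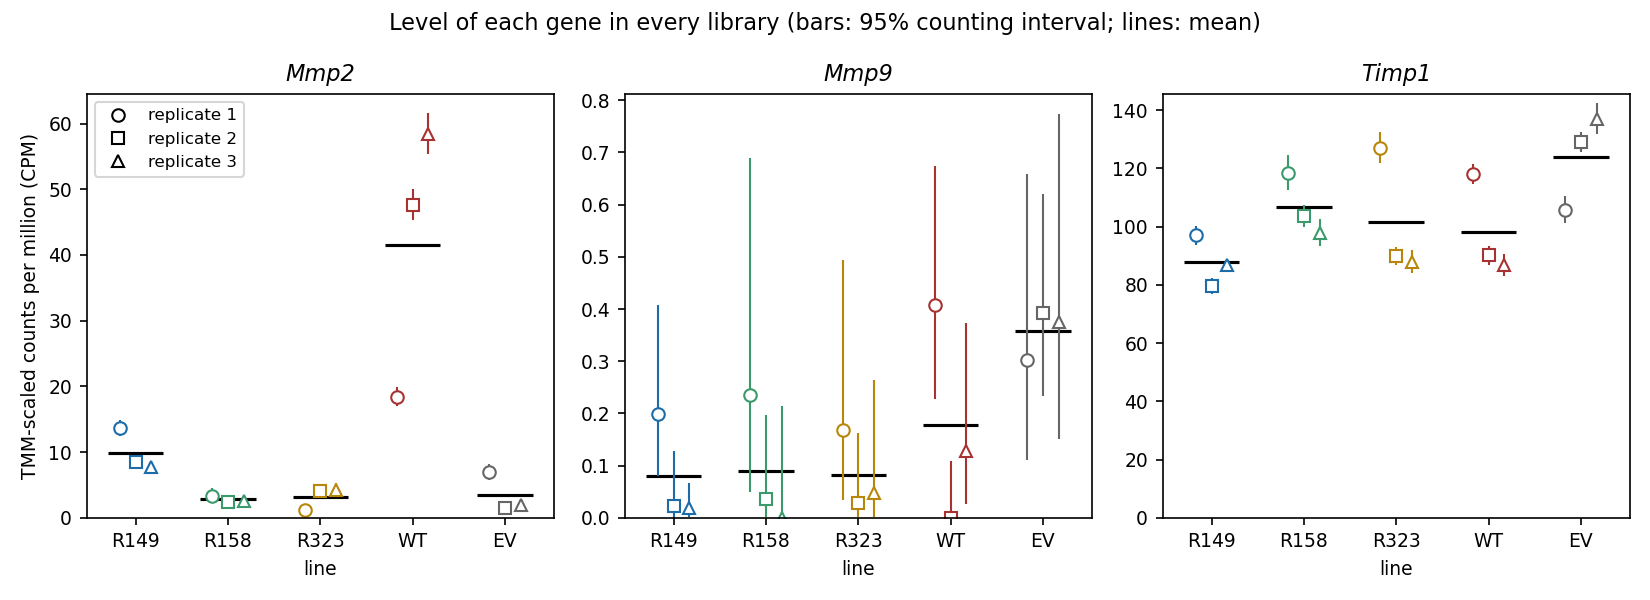
TMM-scaled CPM (vertical axis, linear, from 0) of Mmp2, Mmp9 and Timp1 in the R149, R158, R323, WT and EV lines, with symbols for replicates 1 to 3, vertical bars for the 95% Poisson counting interval of each library and horizontal lines for the mean of 3. The WT libraries lead for Mmp2 at 18.4 to 58.3 CPM, Mmp9 lies at or under 0.408 CPM in all 15 libraries, and Timp1 stays between 79.5 and 137 CPM.

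The comparison of WT with EV asked whether added wild-type MYC changed the level of these RNAs. Mmp2 rose 12.6-fold in WT over EV, with a log2 fold change of 3.65 ± 0.564 (SE), a 95% interval of 5.48-fold to 28.9-fold and an edgeR adjusted p of 0.000331. In this comparison 12.6% of tested genes were called higher, and the rise of Mmp2 ranked 38 of 13676 by size. The call held in 24 of 24 alternatives. The size depended on EV replicate 1, which had 6.91 CPM, against 1.48 and 1.88 CPM in the other EV libraries. Without it the rise was 25.1-fold, and with replicates 2 and 3 of every line alone it was 32.5-fold.

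Replicates of a line differed in Mmp2 by more than counting error. The 95% counting interval of WT replicate 1 was 17.03 to 19.8 CPM, apart from 45.4 to 50.04 CPM in WT replicate 2 and 55.3 to 61.5 CPM in WT replicate 3. That of EV replicate 1 was 5.81 to 8.17 CPM, apart from 1.15 to 1.88 CPM in EV replicate 2 and 1.31 to 2.61 CPM in EV replicate 3. Pooled over lines, the SD between replicates was 0.842 on the log2 CPM scale for Mmp2, beside a median of 0.211 over all tested genes. Of the 1057 tested genes within 0.5 log2 units of the mean level of Mmp2, 99% had a smaller SD. Replicate 1 was the lowest of its line in R323 and WT and the highest in R149, R158 and EV.

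Mmp2 was also higher in R149 than in EV. The log2 fold change was 1.59 ± 0.542 (SE), a 3-fold rise with a 95% interval of 1.35-fold to 6.67-fold and an edgeR adjusted p of 0.0307. In this comparison 18.2% of tested genes were called higher, so a call by itself did not set Mmp2 apart, while its rise ranked 139 by size. The call was lost with DESeq2 (adjusted p 0.0504). It was also lost without EV replicate 2 (adjusted p 0.138, 2.23-fold), EV replicate 3 (0.123, 2.48-fold) or R149 replicate 1 (0.0989, 2.45-fold) in edgeR. Without EV replicate 1 the rise was 5.95-fold with an edgeR adjusted p of 0.00268, and with replicates 2 and 3 alone it was 4.93-fold with an adjusted p of 2.34e-06.

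Neither R158 nor R323 differed from EV in Mmp2 beyond the spread of the libraries. The log2 difference was -0.25 in R158 over EV, with a 95% interval of -1.53 to 1.02 and an edgeR adjusted p of 0.783. In R323 over EV it was -0.01, with an interval of -1.24 to 1.22 and an adjusted p of 0.992. The intervals reach from 2.89-fold lower to 2.03-fold higher in R158 and from 2.37-fold lower to 2.33-fold higher in R323, so these lines were not shown to match EV. Both signs turned without EV replicate 1. With replicates 2 and 3 alone Mmp2 was 1.53-fold higher in R158 than in EV (edgeR adjusted p 0.0313) and 2.57-fold higher in R323 (adjusted p 0.000208). That fit called 41.8% of its tested genes in R158 over EV and 42.8% in R323 over EV. Without EV replicate 1 alone, with the other replicate 1 libraries kept, the log2 differences were 0.73 and 0.99, and neither was called (adjusted p 0.366 and 0.207). In R158 over EV 14.4% of tested genes were called higher, and in R323 over EV 14.1%.

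The comparisons of the mutants with WT asked whether the substituted lysines bore on these RNAs. Mmp2 was lower in R158 and in R323 than in WT. In R158 the log2 difference was -3.91 ± 0.583 (SE), which is 15-fold lower with a 95% interval of 6.35-fold to 35.4-fold and an edgeR adjusted p of 0.00541. In R323 it was -3.66 ± 0.562, which is 12.7-fold lower with an interval of 5.54-fold to 29.0-fold and an adjusted p of 0.00313. Few genes were called lower in these comparisons, 0.314% of tested genes in R158 and 0.563% in R323. Calls in either direction numbered 82 in R158 over WT, 206 without WT replicate 1 and 19 without WT replicate 3. For R323 over WT they numbered 122, with 242 without WT replicate 1 and 61 without WT replicate 2. By size the fall of Mmp2 ranked 19 of 13676 in R158 and 27 in R323. The R323 call held in 24 of 24 alternatives and the R158 call in 23, the exception being the fit without R158 replicate 2 (adjusted p 0.0553, 14.1-fold lower).

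The difference of R149 from WT missed the threshold. Mmp2 was lower by a log2 difference of -2.07 ± 0.506 (SE), with a 95% interval of 1.99-fold to 8.83-fold lower and an edgeR adjusted p of 0.065, and 0.994% of tested genes were called lower. The 3 R149 libraries did not overlap the 3 WT libraries, an arrangement found in this direction in 8.45% of tested genes. With the replicate number as a block, the log2 difference was -2.09 and the adjusted p 0.0299. Without WT replicate 1 the adjusted p was 0.0126 at a 5.41-fold lower level, without EV replicate 1 it was 0.0188 and without R323 replicate 1 it was 0.0342. Those last 2 libraries are of neither line compared. With replicates 2 and 3 alone it was 9.79e-07 at a 6.59-fold lower level, in a fit that called 9.59% of its tested genes in this comparison. Across 24 alternatives 7 called it, with adjusted p from 9.79e-07 to 0.301.

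Libraries of equal replicate number deviated together among the 4 MYC lines, so Mmp2 was also set side by side by number. In replicate 1 the level in R149 was 0.740 of that in WT, in replicate 2 it was 0.178 and in replicate 3 it was 0.132. For R158 the ratios were 0.184, 0.0518 and 0.0438, and for R323 they were 0.0613, 0.0868 and 0.0731. All 9 ratios were below 1, which follows from every WT library standing above all libraries of the other lines. For R149 and R158 the replicate 1 ratio was the nearest to 1. The WT library of replicate 1 was the lowest of the WT line.

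**Figure D2:**
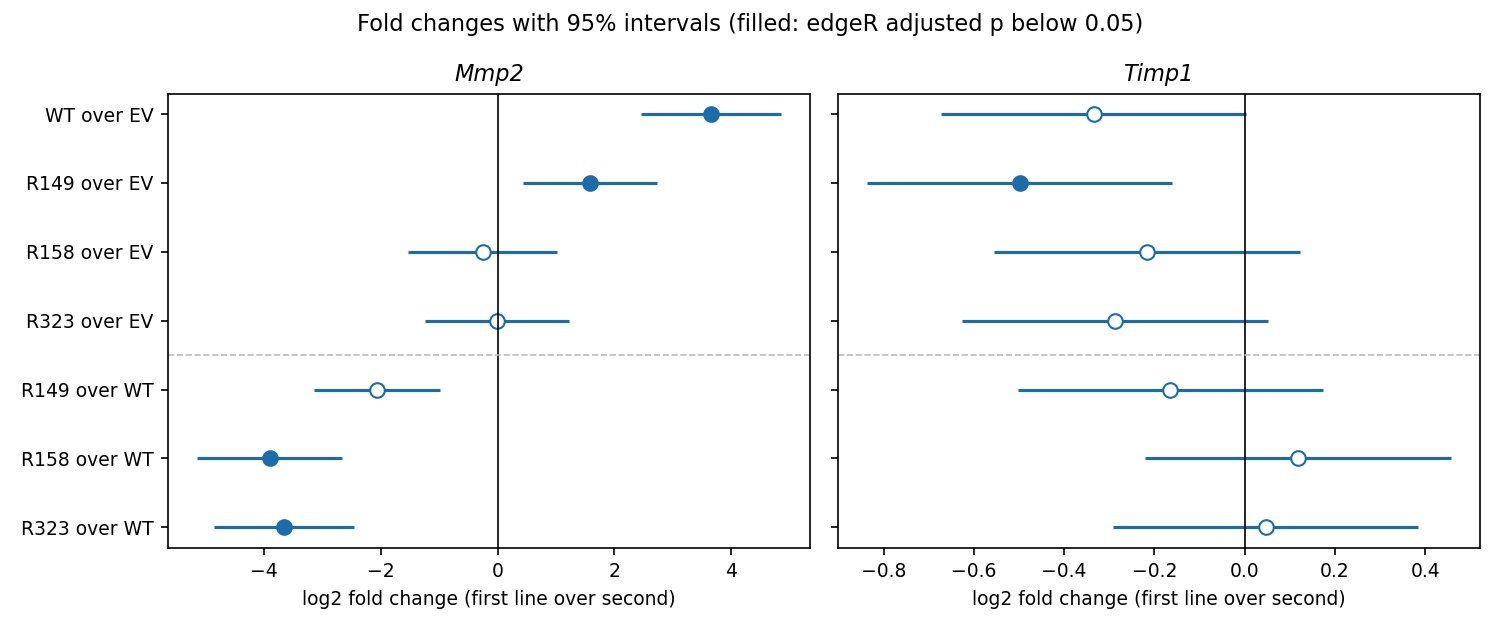
Log2 fold changes (horizontal axis, first line over second, with 95% intervals) of Mmp2 and Timp1 for the 4 MYC lines against EV and the 3 mutants against WT, with filled points for an edgeR adjusted p below 0.05. For Mmp2 the filled points are WT over EV at 3.65, R149 over EV at 1.59, R158 over WT at -3.91 and R323 over WT at -3.66, and for Timp1 the only filled point is R149 over EV at -0.50.

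Among the mutants, R149 had the highest mean of Mmp2, but no pair was called by edgeR, with 2 of 3 at an unadjusted p below 0.05, and DESeq2 and limma-voom called 0. R149 stood 3.58-fold above R158 (95% interval 1.56 to 8.22-fold, edgeR adjusted p 0.184) and 3.02-fold above R323 (1.37 to 6.68-fold, adjusted p 0.26). Higher calls made up 0.271% and 0.183% of tested genes in these 2 comparisons. R158 and R323 differed by a log2 value of -0.24 (interval -1.51 to 1.03, adjusted p 0.89, with 0.358% of tested genes called lower). With replicates 2 and 3 alone all 3 pairs were called, with edgeR adjusted p of 0.000228, 0.00367 and 0.0311 and log2 differences of 1.69, 0.94 and -0.74, in the same order. That fit called 627, 547 and 1274 of its 13798 tested genes in these pairs, or 4.54%, 3.96% and 9.23%. On the 6 libraries of R149 and R158 alone, edgeR called Mmp2 with a log2 difference of 1.85 (adjusted p 0.03). By mean level the lines thus ran, from high to low, WT, R149, EV, R323 and R158. Of the neighbours in this order only R149 and EV were called different. The unadjusted edgeR p was smaller for R149 over WT (0.000917) than for the called R149 over EV (0.0102). It was also smaller for R149 over R158 (0.0051) and R149 over R323 (0.00945). Adjustment was made within each comparison, and edgeR called 5264 genes in R149 over EV and 162 in R149 over WT. The calls therefore do not rank these differences. The place of EV rested on EV replicate 1, since the other EV libraries, at 1.48 and 1.88 CPM, lay below every R158 library. With replicates 2 and 3 alone R158 and R323 were both called above EV. That fit called 41.8% and 42.8% of its tested genes in these comparisons. With only EV replicate 1 left out neither was called (edgeR adjusted p 0.366 and 0.207), so the place of EV was not settled.

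**Figure D3:**
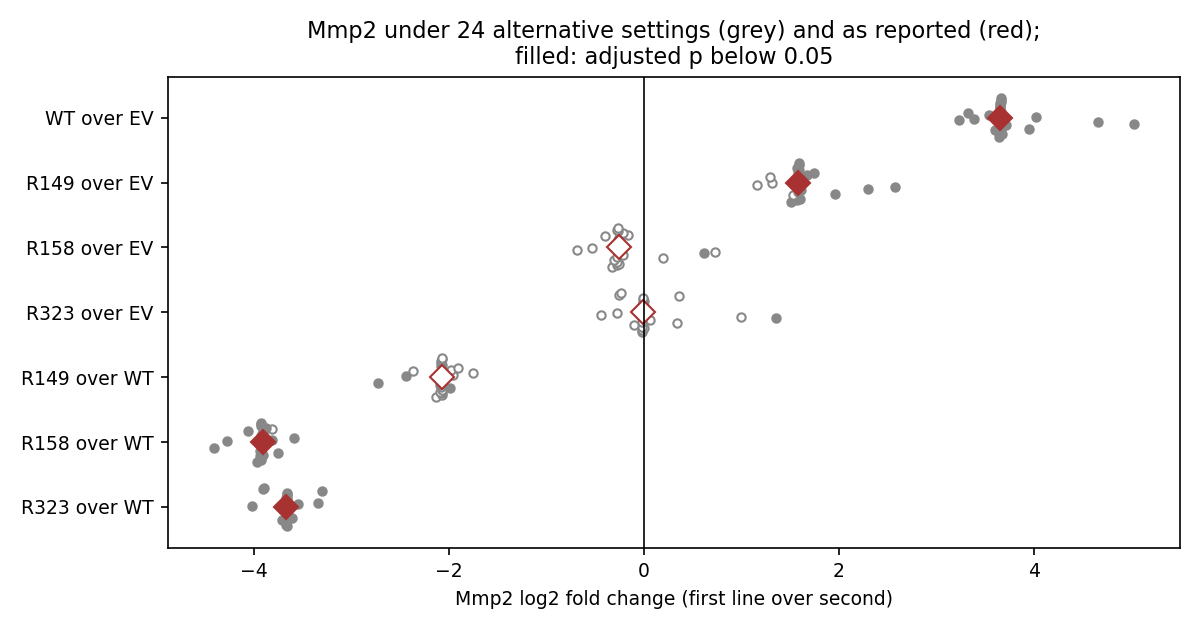
Mmp2 log2 fold change (horizontal axis, first line over second) in 7 comparisons as reported (red diamonds) and under 24 alternative settings each (grey points), filled where the adjusted p was below 0.05. WT over EV stays between 3.23 and 5.02 and R323 over WT between -4.01 and -3.30, all filled, while R158 over EV and R323 over EV fall on both sides of 0.

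Mmp9 was too low to read in single libraries. It had 68 counts over all 15 libraries, at most 18 in any one, and 10 of the 15 libraries had 3 counts or fewer. It passed the filter at its limit, since 3 libraries had to reach 0.341 CPM on plain library totals and EV replicates 2 and 3 and WT replicate 1 were the 3 that did. A gene that passes through the libraries in which it is high is bound to look different there, so its fitted fold changes are descriptions.

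Replicates 1 to 3 of R149 had 7, 1 and 2 Mmp9 counts, those of R158 had 3, 1 and 0, and those of R323 had 3, 1 and 1. In WT they had 15, 0 and 3 counts, and in EV they had 6, 18 and 7. The 5 libraries over 3 counts were R149 replicate 1, WT replicate 1 and the 3 EV libraries. The 0 counts of WT replicate 2 allow up to 0.0883 CPM as a one-sided limit of 3 counts in that library, and the two-sided exact Poisson interval reaches 0.109 CPM.

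Summed over a line, Mmp9 stood at 0.0538 CPM in R149 (95% Poisson interval 0.0258 to 0.099), 0.0686 CPM in R158 (0.0187 to 0.176) and 0.0684 CPM in R323 (0.0222 to 0.160). It stood at 0.191 CPM in WT (0.113 to 0.302) and 0.368 CPM in EV (0.250 to 0.522). The intervals of the 3 mutant lines lay below that of EV, and that of WT overlapped it. These intervals do not hold the spread between cultures, which for WT was wide, since 15 of its 18 counts came from replicate 1.

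edgeR called Mmp9 in 0 of 10 comparisons, with 1 at an unadjusted p below 0.05. DESeq2 called 0 and gave no adjusted p in 2, limma-voom called 1, R149 over EV, and edgeR with replicates 2 and 3 alone called 4, all against EV. The smallest adjusted p was that of R149 over EV, 0.0643 at a log2 difference of -2.46 ± 1.00 (SE). The R149, R158 and R323 libraries each lay below all 3 EV libraries, as did 28%, 22.7% and 25.6% of tested genes in these comparisons, and WT overlapped EV. In R149 over EV 20.2% of tested genes were called lower. R149 over EV was called lower without R149 replicate 1, at an adjusted p of 0.0106 and 15.5-fold lower, and without WT replicate 2, at 0.0431. EV replicates 2 and 3 were among the libraries through which Mmp9 passed the filter. These calls, and the lack of overlap with EV, are therefore no test of a fall. No order among the 4 MYC lines could be read at this depth.

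Timp1 was abundant in every line and differed little between them. It averaged 87.7 ± 8.81 CPM in R149, 107 ± 10.5 CPM in R158, 102 ± 22.0 CPM in R323, 98.3 ± 17.2 CPM in WT and 124 ± 16.3 CPM in EV (SD, n = 3 each). All 4 MYC lines had a lower mean than EV, but only the fall in R149 was called. At least 1507 counts stood behind each library, and the counting intervals were narrower than the spread between cultures of a line.

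Replicates 1 to 3 of R149 had 97.0, 79.5 and 86.7 CPM of Timp1, those of R158 had 118, 104 and 98.0 CPM, and those of R323 had 127, 89.9 and 88.0 CPM. In WT they had 118, 90.1 and 86.7 CPM, and in EV they had 106, 129 and 137 CPM. Each R149 library lay below each EV library, an arrangement found in 28% of tested genes, while the other 3 MYC lines overlapped EV. Replicate 1 was the highest library of all 4 MYC lines and the lowest of EV. The pooled SD between replicates was 0.212 on the log2 CPM scale, beside the median of 0.211 over all tested genes.

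In R149 over EV Timp1 fell by a log2 difference of -0.50 ± 0.159 (SE), to 0.708 of its EV level with a 95% interval of 0.560 to 0.895 and an edgeR adjusted p of 0.0221. This is a comparison in which 20.2% of tested genes were called lower, and 2964 of the 13676 tested genes had a fold change at least as low, so Timp1 was not among the larger falls. The call was lost without EV replicate 2 (adjusted p 0.0688), EV replicate 3 (0.0817), R149 replicate 2 (0.0723) or R149 replicate 3 (0.0578) in edgeR. In WT over EV the log2 difference was -0.33 (95% interval -0.67 to 0.00389, adjusted p 0.135), in R158 it was -0.22 (-0.56 to 0.12, adjusted p 0.329) and in R323 it was -0.29 (-0.63 to 0.0511, adjusted p 0.191). Lower calls made up 14.1%, 14.1% and 15.7% of tested genes in these 3 comparisons. The WT fall was called without WT replicate 1 (adjusted p 0.0498) and the R323 fall without R323 replicate 1 (adjusted p 0.0359). With replicates 2 and 3 alone edgeR called all 4 falls, with log2 differences of -0.59 in WT, -0.69 in R149, -0.41 in R158 and -0.59 in R323 and a highest adjusted p of 0.00423. Against EV it also called 46.9% of all its tested genes for R149, 41.8% for R158, 42.8% for R323 and 37.3% for WT, so a call there hardly sets Timp1 apart.

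No mutant was called different from WT in Timp1 by edgeR, and 0 of these 3 comparisons had an unadjusted p below 0.05. DESeq2 and limma-voom called 0 as well. The log2 differences were -0.16 in R149 (95% interval -0.50 to 0.17), 0.12 in R158 (-0.22 to 0.46) and 0.05 in R323 (-0.29 to 0.39), with adjusted p of 0.772, 0.829 and 0.996. The bounds farthest from no change were 1.42-fold lower in R149, 1.37-fold higher in R158 and 1.31-fold higher in R323. No pair of mutants was called. R149 over R158 had the largest log2 difference, -0.28 (95% interval -0.62 to 0.057, edgeR adjusted p 0.649). R149 over R323 stood at -0.21 (-0.55 to 0.13, adjusted p 0.638) and R158 over R323 at 0.07 (-0.27 to 0.41, adjusted p 0.878). From high to low the lines ran EV, R158, R323, WT and R149, and no neighbours in this order were called different.

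The ratio of Mmp2 to Timp1 counts within a library does not depend on how libraries are scaled, and is given as a description without a test. It compares libraries, not the amounts of the 2 RNAs, since gene length was not used. For each 100 counts of Timp1, replicates 1 to 3 of R149 had 14.0, 10.7 and 8.88 counts of Mmp2, those of R158 had 2.85, 2.38 and 2.61, and those of R323 had 0.888, 4.60 and 4.85. In WT the ratios were 15.6, 52.9 and 67.3, and in EV they were 6.54, 1.15 and 1.37. All WT libraries lay above the other 12, by a narrow margin in replicate 1, and all R149 libraries lay above those of R158, R323 and EV. Within WT, R323 and EV the library that stood apart was replicate 1, the lowest of WT and R323 and the highest of EV.

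**Figure D4:**
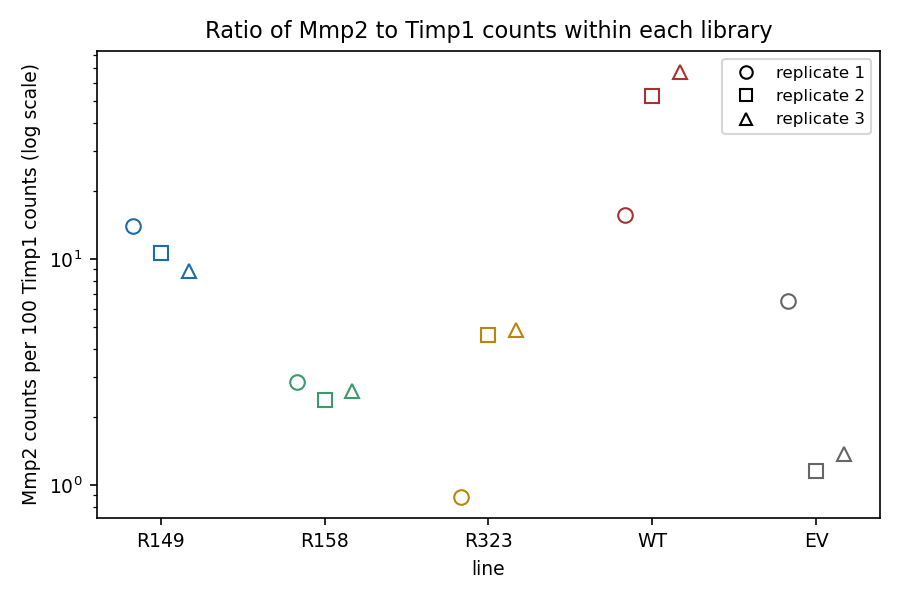
Counts of Mmp2 per 100 counts of Timp1 (vertical axis, log scale) in every library of the R149, R158, R323, WT and EV lines, with symbols for replicates 1 to 3. WT libraries lie between 15.6 and 67.3, R149 libraries between 8.88 and 14.0, and the libraries of R158, R323 and EV between 0.888 and 6.54.

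The tested gene whose log2 CPM followed each member most closely over the 15 libraries is given by identifier, since the tables carry no names. For Mmp2 it was ENSRNOG00000013552 (Pearson r = 0.905), which averaged 48.8 ± 20.3 CPM in R149, 20.3 ± 3.55 CPM in R158, 22.5 ± 10.4 CPM in R323, 109 ± 47.3 CPM in WT and 16.5 ± 1.84 CPM in EV (SD, n = 3 each). It was highest in WT with R149 next, an order that its choice by likeness to Mmp2 favoured. For Timp1 it was ENSRNOG00000048288 (r = 0.933), at 29.3 ± 2.51 CPM in R149, 34.1 ± 3.61 CPM in R158, 30.4 ± 6.20 CPM in R323, 30.1 ± 4.21 CPM in WT and 36.9 ± 2.68 CPM in EV. For Mmp9 it was ENSRNOG00000026293 (r = 0.925), a likeness that rests on the 68 counts of Mmp9. The 15 libraries share lines and depth, and these values are the highest of 13675 genes compared, so they describe these libraries only.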

How the data were processed

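The authors deposited 1 table of raw counts per library, whole numbers per rat Ensembl gene. Per the submitters' processing notes, TopHat2 2.1.0 and genome build Rnor_6.0 were used, and per the labels' protocols libraries were made with a stranded dUTP mRNA kit. Which program counted the reads, with which strand setting and annotation, is not given in the sources used here. Members and lists were chosen with earlier results of these data known.

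The main test was the quasi-likelihood test of edgeR 4.0.16 (R 4.3.3) on these counts. Genes were kept with filterByExpr (minimum 10 counts, 13676 genes, 99.98% of counts), scaled by TMM, and fitted with the line as the only term over all 15 libraries, with 10 contrasts. Log2 CPM used a prior count of 2. The named genes were the 3 members and, for each, the tested gene with the highest Pearson r. Alternatives were library totals alone, RLE factors, no filter, a minimum of 50 counts, DESeq2 1.42.0, limma-voom (limma 3.58.1), the 2 lines alone, the replicate number as a block, replicates 2 and 3 alone, and each library left out. The procedure was run on simulated counts. These were drawn independently for each library, held no deviations shared by equal-numbered libraries, and so do not bear on the replicate 1 differences. No 2 replicates agreed within counting noise (chi-square per degree of freedom at least 4.24).

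The labels do not say that replicate numbers mark a shared day. Deviations from group means correlated at 0.127 to 0.54 between equal-numbered libraries of the MYC lines, over 0.1 in every pair of 6 contrasts. The calls reported for these 6 contrasts nevertheless come from the fit without a replicate block, and the block was an alternative only. For contrasts with EV the lowest was 0.0986 in WT, 0.0843 in R158, 0.0174 in R149 and 0.0052 in R323. None passed the limit of 0.1, WT and R158 by a small margin, so replicate numbers were not taken as paired with EV. Marker and pathway lists were not run, because 0 RefSeq entries carried an Ensembl identifier.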

Additional observations from a re-analysis of the deposited data

Results flagged for a closer look

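The change of Mmp2 against EV differed between MYC lines by a test of the difference itself, the contrast of mutant with WT in edgeR. The EV level cancels in this difference, so it is the contrast already reported above and no second result. The change in R158 minus that in WT was -3.91 on the log2 scale (adjusted p 0.00541), and the change in R323 minus that in WT was -3.66 (adjusted p 0.00313). Mmp2 was lower than WT in 3 of 3 libraries of R158 and in 3 of 3 of R323. That count follows from every WT library standing above all libraries of the other lines. WT replicate 1 was the lowest WT library, at 18.4 CPM, and without it the log2 values were -4.28 and -4.01.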

How the results depend on the processing

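Each comparison was refitted under up to 24 alternatives, and values here are log2 fold changes. Mmp2 in WT over EV and in R323 over WT was called in all of them. No scaling moved the median of all genes by over 0.1. With library totals alone 1 sign turned, Mmp9 in R158 over R323 (-0.035), at counts too low to read. Without a filter Mmp2 was -2.06 in R149 over WT, then called, and 0.0037 in R323 over EV, not called. DESeq2 gave 1.53 for Mmp2 in R149 over EV, no longer called. limma-voom called Mmp2 in R149 over WT (-1.98) and Mmp9 in R149 over EV (-3.09), and turned the uncalled Mmp2 values of R158 and R323 over EV to 0.19 and 0.34 and Mmp9 in R158 over R323 to -0.15. The minimum of 50 counts removed Mmp9 and so gave it no value.

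With the replicate number as a block, newly called were Mmp2 in R149 over WT (-2.09), Mmp9 in R149 and R323 over EV (-2.79 and -2.55) and Timp1 in WT over EV (-0.36), while the uncalled Mmp2 value of R323 over EV was 0.068. The block ended no call. It called 244 to 510 genes in the mutants over WT, where 82 to 162 were called without it, and 302 to 471 between mutants, where 128 to 174 were. Because the numbers were not taken as paired with EV, no conclusion is drawn from the block for a contrast with EV.

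Replicates 2 and 3 alone called Mmp2 in all 10 comparisons, among them -2.72 in R149 over WT, 0.62 in R158 over EV and 1.36 in R323 over EV. They also called Mmp9 over EV (-2.81 in WT, -4.08 in R149, -3.96 in R158, -3.32 in R323) and Timp1 over EV (-0.59 in WT, -0.41 in R158, -0.59 in R323), and gave -0.64 for Mmp9 in R158 over R323, not called. They called 1323, 996 and 924 genes in R149, R158 and R323 over WT, 547 to 1274 between mutants and 5151 to 6474 against EV, and the cause was not tested.

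With each library left out in turn, Mmp2 ranged from 1.16 to 2.57 in R149 over EV, from -2.44 to -1.75 in R149 over WT, from -0.68 to 0.73 in R158 over EV, from -4.28 to -3.59 in R158 over WT and from -0.44 to 0.99 in R323 over EV. Mmp9 gave no value without EV replicate 2 or WT replicate 1, where it failed the low-count filter. In the other 13 fits Mmp9 ranged from -3.96 to -1.74 in R149 over EV, and its uncalled values between mutants from -1.64 to 1.40 in R149 over R158, from -1.64 to 0.72 in R149 over R323 and from -1.58 to 0.90 in R158 over R323. Timp1 ranged from -0.61 to -0.43 in R149 over EV, from -0.49 to -0.25 in WT over EV, from -0.47 to -0.19 in R323 over EV, from -0.14 to 0.20 in R323 over WT and from -0.042 to 0.25 in R158 over R323. Low counts, a filter passed through libraries in which it was high, and the spread between cultures limit Mmp9. The spread between cultures limits Mmp2.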
